A study of Rattus norvegicus with 4 samples.

Results

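The proteasome subunit genes are the genes that encode the parts of the proteasome, the barrel-shaped protease that degrades ubiquitin-tagged proteins. They were chosen by symbol, as every gene whose name is Psma, Psmb, Psmc, Psmd, Psme or Psmf followed by a number, without Psmb8 and Psmb9, and with at least 200 UMIs (unique molecular identifiers, each standing for 1 captured transcript) over the whole matrix. Of 32623 genes in the matrix, 42 fitted the pattern and 40 passed the minimum. Psma8, a testis form of an alpha subunit, had 5 UMIs and Psmb11, the thymus form of a catalytic subunit, had 0, and both stayed out. The 2 members nearest the minimum were Psmd10 with 1827 UMIs and Psmd5 with 2955 UMIs, so no member lay close to it. The members comprised 15 genes of the 20S core, 20 genes of the 19S regulatory particle, 4 activator genes (Psme1 to Psme4) and Psmf1, which encodes the regulator PI31.

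The proteasome core is a stack of rings in which the outer alpha rings gate the entrance and the inner beta rings hold the proteolytic sites, carried in most cells by the products of Psmb5, Psmb6 and Psmb7. The 19S particle caps the core, binds and strips ubiquitin chains, and uses a ring of ATPases to unfold the substrate. Interferon induces alternative catalytic subunits, among them the Psmb10 product, which takes the place of the Psmb7 product in the immunoproteasome, and the PA28 activator made of the Psme1 and Psme2 products. In brain, the constitutive form is known to predominate in neural cells and the immunoproteasome to be more frequent in immune cells.

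The study measured single-cell transcriptomes of rat hippocampus with droplet libraries (10x Genomics, 3′ chemistry version 3). Its 4 titled samples are NC, which the labels call a negative control, MCAO, DEPR and MD, each with 1 library and each from wild type animals. The design text describes male adult Sprague Dawley rats of 10 to 12 months and 250 to 300 g in 2 groups of 10, all with a monofilament placed in the middle cerebral artery on 1 side, 1 group then exposed to chronic stress, and 5 hippocampi per group sequenced. That text gives 2 groups where the titles give 4, and it mentions no animals without the artery procedure. The abbreviations are not spelled out there, and hippocampi of several rats may have been pooled in a library. The deposited matrix holds the 4 libraries as barcodes ending in 1 to 4, and nothing in the sources used here ties an ending to a title. Each ending is therefore called a barcode set, is reported by its number, and stands for 1 library of unknown condition, so that conditions were not compared and intervals cover counting error only. Cell types were compared within each set, and the 4 sets served as blocks in an edgeR test of the types that was added after the values were seen.

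The 4 sets held 5884 to 9504 barcodes and 36242408 to 54295520 UMIs, and 28879 of 31638 barcodes were kept. The median depth of kept cells was 4574.5 to 6029 UMIs per set, and 192 barcode sequences occurred in more than 1 set. Cells were assigned to a type by marker genes, which gave 10605 microglia, 7978 oligodendrocytes and 2654 endothelial cells as the main types. All 12 microglial, 12 oligodendrocyte and 14 endothelial markers were detected in their own type. The same markers assigned the cells, so their detection is no separate check of identity. The same rule found 1 neuron and 4 astrocytes, so the proteasome of these hippocampal cell types is not described here. Endothelial cells also carried haemoglobin transcripts. In CPM, the UMIs of a gene per 1000000 UMIs of all genes, their summed level was 44778, 70237, 5773 and 9573 CPM in sets 1 to 4.

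Levels are given as CPM after summing over the cells of 1 type in 1 set. The 40 genes together made up 3294, 3311, 3407 and 3326 CPM in microglia of sets 1 to 4. In oligodendrocytes, the myelin-forming cells, they reached 5701, 6119, 5619 and 5795 CPM. In endothelial cells, which line the vessels, they reached 4944, 4815, 5382 and 5354 CPM. The 3 ranges did not overlap: oligodendrocytes were 1.65 to 1.85 times and endothelial cells 1.45 to 1.61 times above microglia in the same set. Across all sets the sum was 6412 CPM in ependymal cells, 5586 in T cells, 5356 in monocytes, 5182 in pericytes, 4829 in smooth muscle cells and 3510 in border macrophages. Border macrophages, the tissue macrophages of the brain's surfaces, thus lay nearest to microglia. They also carried 14314 CPM of the 12 microglial markers, against 19395 CPM in microglia, at a median of 22.9% of the microglial level per marker. Of these 139 cells 46 lay at the minimum of the marker rule, and the part of mixing with microglia was not tested.

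**Figure D1:**
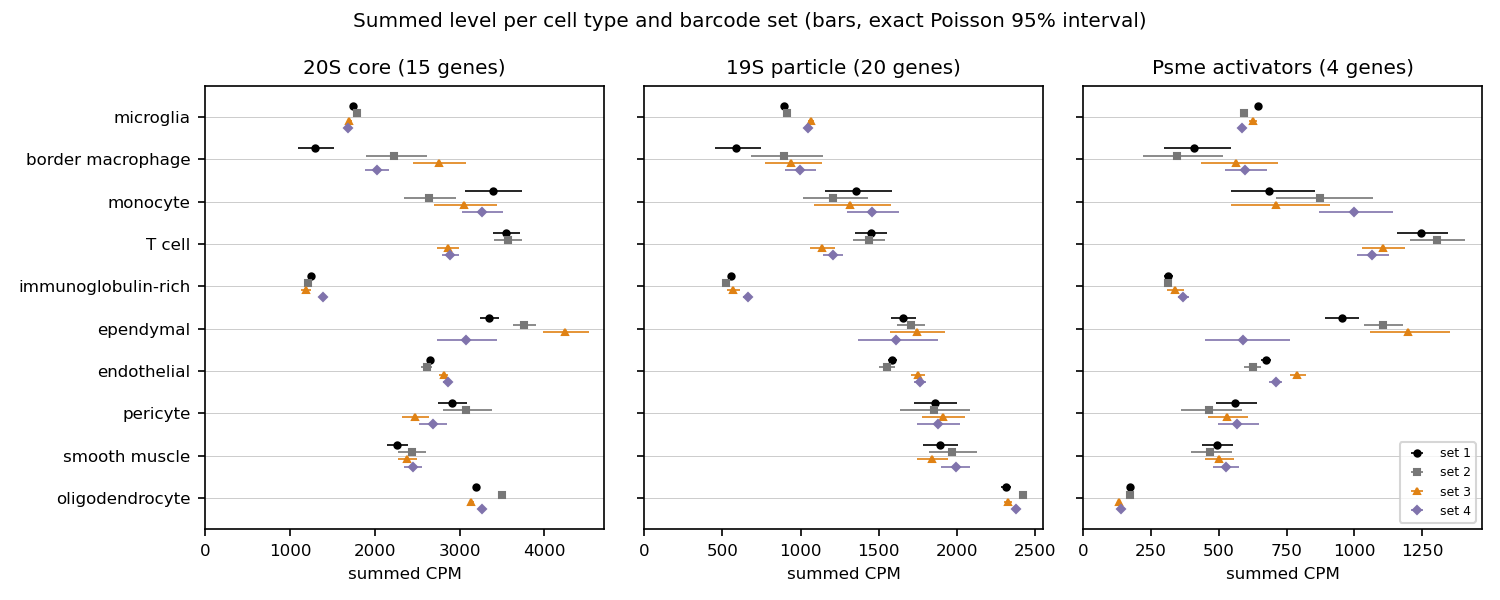
Summed CPM (x axes) of the 15 genes of the 20S core, the 20 genes of the 19S particle and the 4 Psme activators in 10 cell types (y axis), with 1 marker per barcode set and bars for the exact Poisson 95% interval. Oligodendrocytes sit at 2313 to 2422 CPM for the 19S genes and at 131 to 174 CPM for the activators, whereas microglia sit at 892 to 1067 and 586 to 646 CPM.

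The sum hid opposite differences between the particles. The 20S genes amounted to 1739, 1787, 1701 and 1683 CPM in microglia and to 3196, 3502, 3137 and 3260 CPM in oligodendrocytes. The 19S genes amounted to 892, 911, 1067 and 1045 CPM in microglia and to 2313, 2422, 2326 and 2374 CPM in oligodendrocytes. The sum of the 4 activators went the other way, with 646, 595, 625 and 586 CPM in microglia and 174, 173, 131 and 141 CPM in oligodendrocytes. Psme1 held most of that sum in microglia and was the only activator called lower by the rule given below. Endothelial cells had 2613 to 2858 CPM of 20S genes and 1551 to 1762 CPM of 19S genes, between the 2 glial types, and 625 to 790 CPM of activators, above microglia of the same set in every set.

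**Figure D2:**
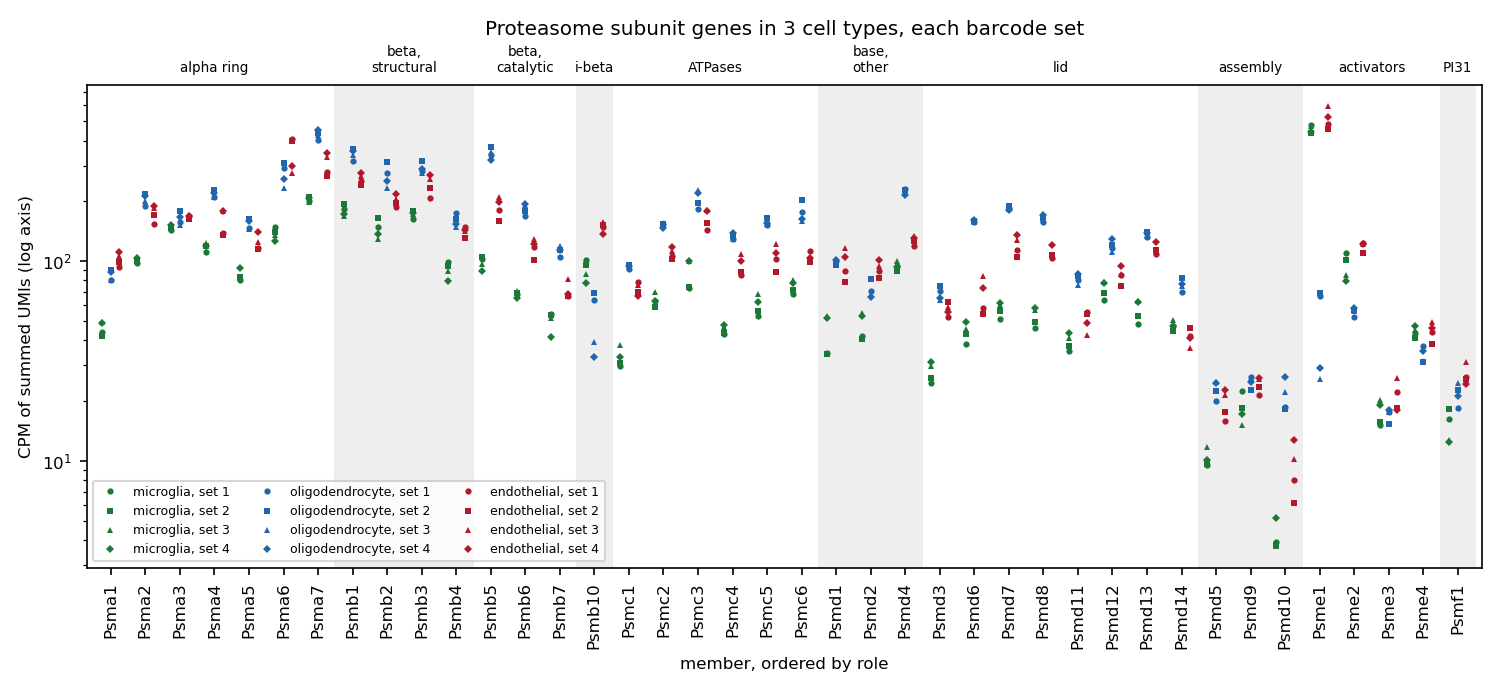
CPM on a log axis (y) of each of the 40 genes (x, ordered by role) in microglia (green), oligodendrocytes (blue) and endothelial cells (red), with a marker shape per barcode set. For most 20S and 19S genes the blue points lie above the green ones, and for Psmb10, Psme1 and Psme2 they lie below both other types.

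On the plain CPM scale the constitutive core and the regulatory particle were higher in oligodendrocytes than in microglia in most genes, while Psme1 of the PA28 activator was lower. A gene was called higher or lower where the ratio of CPM was at least 1.5-fold and its exact 95% interval left out 1 in every set. By this rule 29 of 40 members were higher and 1 was lower, where 37.6% of all 10826 measured genes were higher and 22.1% were lower. Among measured genes with UMI totals within the members' range, 39.6% were higher and 21.1% lower. The calls comprised 13 of 15 core genes and 16 of 20 genes of the 19S particle. The median log2 ratio was 0.89 for the core genes and 1.25 for the 19S genes, against 0.42 for all measured genes, or 0.47 and 0.83 above that general shift. TMM scaling, which takes the shift out, moved the median of all genes to 0.02 and the share of higher calls among all calls from 63.0% to 49.3%. With edgeR's quasi-likelihood test, the set as a block and Benjamini-Hochberg adjustment over all measured genes, 32 members were at least 1.5-fold higher at an adjusted p under 0.05 (45.3% of all genes) and 3 lower (26.3%), namely Psme1, Psmb10 and Psme2, and the 30 members called in every set were among them. TMM scaling left 16 members higher (27.3% of all genes) and 4 lower (28.0%), and all 20 of the 19S genes still had a positive median ratio.

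Within the 19S particle the ATPases that unfold substrates formed an even group. All 6, Psmc1 to Psmc6, were called higher, with median log2 ratios of 1.22 to 1.56, and Psmc1 led them with 29.7, 30.8, 37.9 and 33.1 CPM in microglia and 90.8, 95.9, 92.9 and 94.4 CPM in oligodendrocytes. Of the 8 lid genes, which help to remove ubiquitin chains, 6 were called. Psmd6, a structural lid subunit, had 38.5, 43.2, 45.7 and 49.7 CPM in microglia and 157, 159, 157 and 160 CPM in oligodendrocytes, a median log2 ratio of 1.83. Psmd7, which pairs with the deubiquitinase Psmd14, had a median log2 ratio of 1.67, and the lid subunit gene Psmd8 had 1.64. Psmd14 itself was not called, at 0.63, nor was Psmd12, at 0.76. Of the non-ATPase genes of the base, the ubiquitin receptor Psmd4 (1.25) and the scaffold Psmd1 (1.23) were called and the scaffold Psmd2 (0.53) was not.

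The 3 genes for factors that help to assemble the base differed among themselves. Psmd10, also known as gankyrin, had 3.91, 3.79, 3.76 and 5.19 CPM in microglia and 18.6, 18.2, 22.0 and 26.3 CPM in oligodendrocytes. Its median log2 ratio of 2.30 was the largest of the 40 genes, with fold values of 4.76 to 5.84 and intervals that ran from 3.39 to 8.40 over the sets. Psmd5 was called at 1.14, and Psmd9 was not, at 0.42, which is the shift of all genes.

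In the 20S core the catalytic subunits differed most. Psmb5, whose product cuts after hydrophobic residues, had 103, 104, 96.3 and 88.9 CPM in microglia and 340, 372, 349 and 321 CPM in oligodendrocytes. The fold was 3.31 (3.09 to 3.55), 3.57 (3.38 to 3.77), 3.62 (3.38 to 3.89) and 3.61 (3.41 to 3.83) in sets 1 to 4, so that the sets could hardly be told apart by counting error. Psmb6, whose product cuts after acidic residues, had 68.1, 68.9, 70.8 and 65.1 CPM in microglia and 167, 177, 190 and 193 CPM in oligodendrocytes. Psmb7, whose product cuts after basic residues, had 54.2, 53.4, 51.8 and 41.5 CPM in microglia and 105, 113, 119 and 114 CPM in oligodendrocytes. The median log2 ratios were 1.84, 1.39 and 1.14, and no set of one type reached into the range of the other.

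The other core genes moved less. All 4 structural beta genes, Psmb1 to Psmb4, were called, with median log2 ratios of 0.76 to 0.96. Of the 7 alpha-ring genes 6 were called, between 0.84 and 1.09, and Psma3 was not, at 0.13. With TMM scaling only Psmb5 and Psmb6 of the 15 core genes stayed called higher, where 27.3% of all genes were higher. The other 11 core genes called before fell under the 1.5-fold minimum in at least 1 set, as did Psmd1 and Psmd11.

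**Figure D3:**
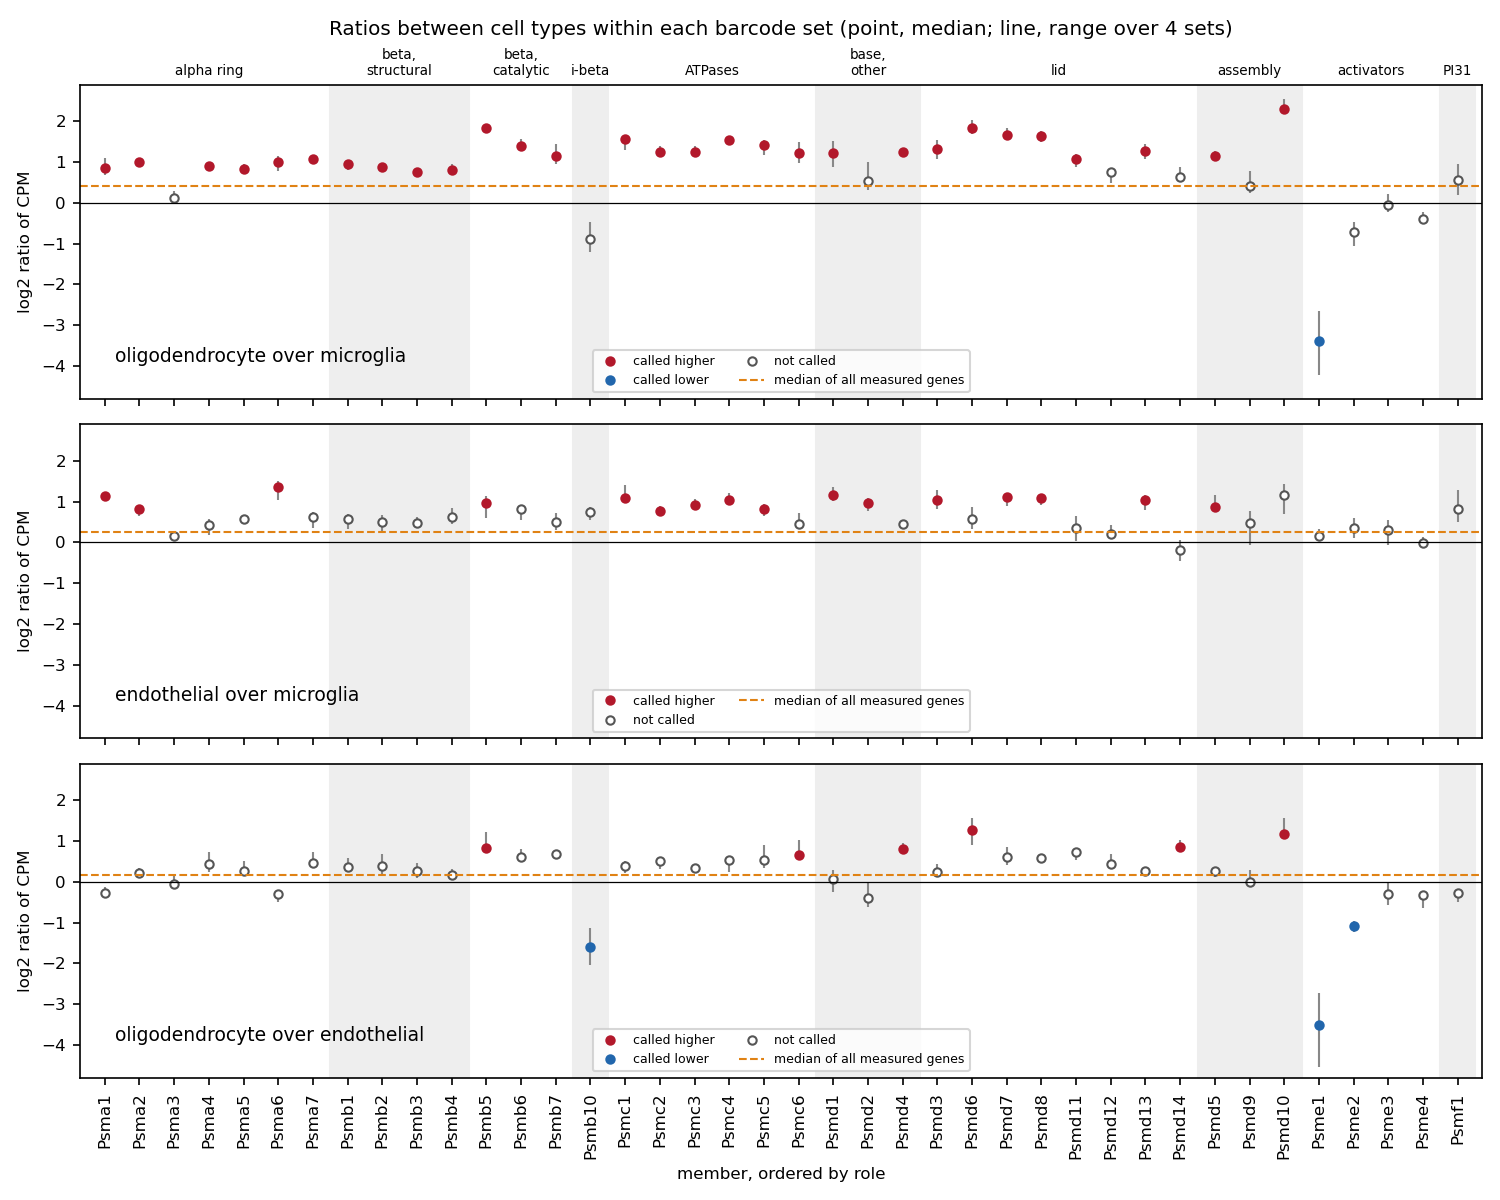
Log2 ratio of CPM (y) for each of the 40 genes (x, ordered by role) in the 3 pairs of cell types, as the median (point) and range (line) over 4 barcode sets. Filled points passed the call in every set, and the dashed line marks the median of all measured genes: 0.42, 0.26 and 0.17 from top to bottom.

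The PA28 genes Psme1 and Psme2 and the immunoproteasome subunit gene Psmb10 formed the exception. Psme1, the alpha chain of PA28, had 478, 437, 475 and 439 CPM in microglia, 486, 459, 592 and 524 CPM in endothelial cells and 67.1, 69.5, 25.5 and 29.0 CPM in oligodendrocytes. Its median log2 ratio was −3.38 against microglia and −3.51 against endothelial cells, and the call held in every set. Psme2, the beta chain, had 109, 101, 84.6 and 79.7 CPM in microglia, 123, 109, 122 and 121 CPM in endothelial cells and 52.4, 56.5, 56.4 and 57.9 CPM in oligodendrocytes. It was called lower than in endothelial cells (−1.09) and, against microglia (−0.71), lower with TMM scaling (−1.09) or with ratios centred on the median of all genes (−1.14). Psmb10 had 101, 95.5, 85.9 and 77.1 CPM in microglia, 148, 151, 156 and 136 CPM in endothelial cells and 63.7, 68.8, 39.5 and 33.2 CPM in oligodendrocytes. For all 3 genes every oligodendrocyte value lay below every value of the other 2 types. Psmb10 was called lower than in endothelial cells (−1.60). Against microglia (−0.89) its fold in set 2, 0.721 (0.664 to 0.783), missed the minimum, and without set 2, or with TMM scaling, it was called. In the blocked edgeR test against microglia the adjusted p was 4.26e-05 for Psme1, 0.00101 for Psmb10 and 0.000778 for Psme2, each lower in 4 of 4 sets.

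The remaining regulators did not pass the rule of every set. Psme3, the nuclear PA28 gamma, had 15.1, 15.7, 20.2 and 18.98 CPM in microglia, 17.6, 15.2, 17.5 and 18.0 CPM in oligodendrocytes and 22.1, 18.4, 26.1 and 18.0 CPM in endothelial cells. Psme4, which encodes PA200, had 43.7, 40.9, 45.2 and 47.5 CPM in microglia, 37.3, 31.4, 31.7 and 35.6 CPM in oligodendrocytes and 43.9, 38.5, 49.6 and 46.0 CPM in endothelial cells. Psmf1 had 16.2, 18.2, 12.7 and 12.4 CPM in microglia, 18.5, 22.7, 24.6 and 21.2 CPM in oligodendrocytes and 26.2, 25.8, 31.2 and 24.2 CPM in endothelial cells. Psmf1 was higher in endothelial cells than in microglia by a median log2 ratio of 0.83, which passed the blocked edgeR test (adjusted p = 0.00171, 0.0112 with TMM scaling and then under 1.5-fold). With TMM scaling Psme4 was lower in oligodendrocytes than in microglia (−0.80), and without set 2 Psmf1 was higher in endothelial cells than in microglia (0.97).

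**Figure D4:**
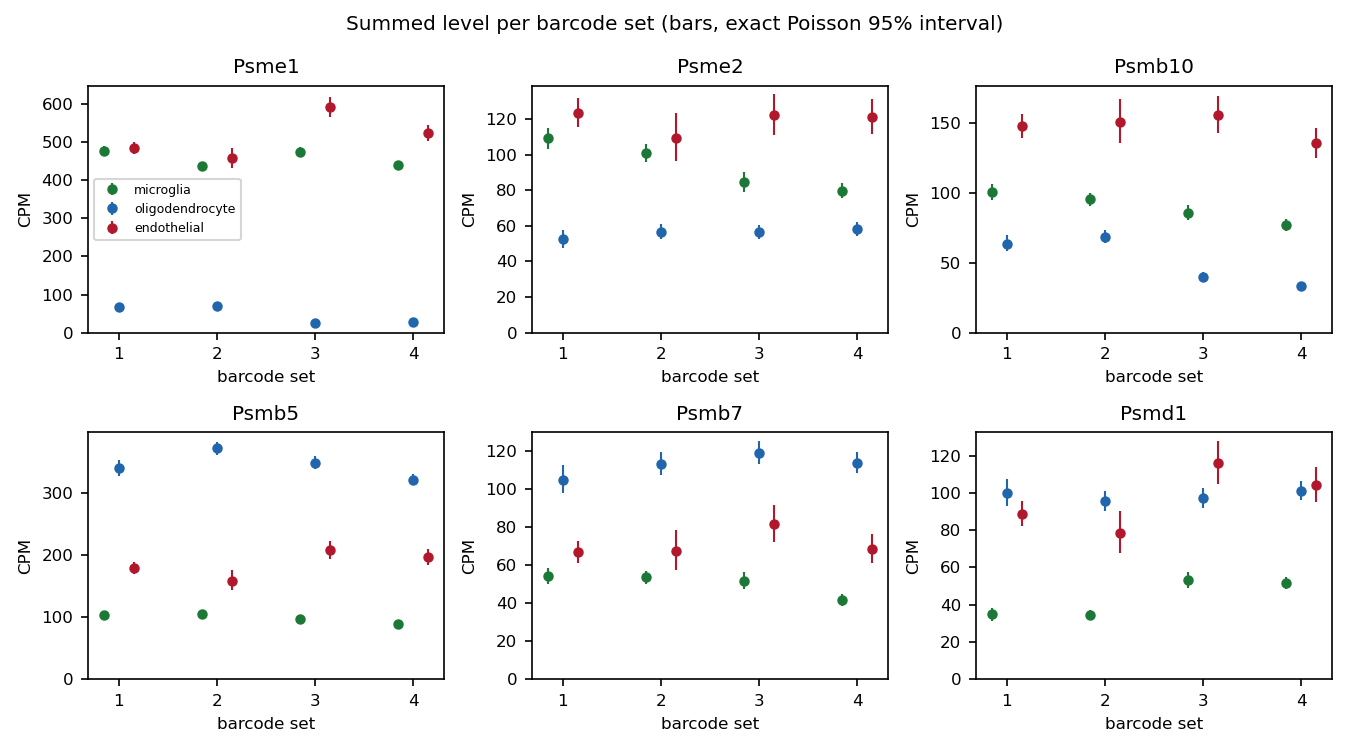
CPM (y axes, from 0) of 6 genes by barcode set (x) in microglia, oligodendrocytes and endothelial cells, with exact Poisson 95% intervals as bars. In oligodendrocytes Psme1 and Psmb10 lie at 67.1 and 63.7 CPM in set 1 and at 25.5 and 39.5 CPM in set 3, while Psmb5 stays between 321 and 372 CPM there.

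The 4 upstream sequences printed here belong to genes chosen from the contrast: Psmb10, Psme1 and Psme2 were low and Psmb5 was high in oligodendrocytes. Psmd10, with a larger ratio than Psmb5, is not printed, and of the 4 motifs searched its window matched only the CCAAT box. Each is the 250 bases before the gene's start, from RefSeq on build GRCr8, written 5′ to 3′ on the gene's strand; the counts were made on another build, Rnor 6.0. Psmb10 (ENSRNOG00000019494) is at chr19:50743293-50743542 on the minus strand, Psme2 (ENSRNOG00000019246) at chr15:33052752-33053001 on the minus strand, Psme1 (ENSRNOG00000019041) at chr15:33038721-33038970 on the plus strand and Psmb5 (ENSRNOG00000013386) at chr15:32047380-32047629 on the minus strand. Capitals mark matches to the interferon-stimulated response element (GAAA, then NN for any 2 bases, then GAAA) in Psmb10 and Psme2 and to the antioxidant response element TGANNNNGC in Psmb5.
Psmb10: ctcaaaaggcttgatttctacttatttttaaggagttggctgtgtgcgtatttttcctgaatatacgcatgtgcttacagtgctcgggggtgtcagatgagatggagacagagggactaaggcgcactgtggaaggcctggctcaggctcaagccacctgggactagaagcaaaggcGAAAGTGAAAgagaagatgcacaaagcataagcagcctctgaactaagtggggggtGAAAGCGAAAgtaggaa
Psme2: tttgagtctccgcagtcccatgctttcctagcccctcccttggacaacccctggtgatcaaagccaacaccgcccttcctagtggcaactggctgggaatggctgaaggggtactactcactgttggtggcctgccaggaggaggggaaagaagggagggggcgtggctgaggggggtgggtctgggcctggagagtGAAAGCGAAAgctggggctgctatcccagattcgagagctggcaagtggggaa
Psme1: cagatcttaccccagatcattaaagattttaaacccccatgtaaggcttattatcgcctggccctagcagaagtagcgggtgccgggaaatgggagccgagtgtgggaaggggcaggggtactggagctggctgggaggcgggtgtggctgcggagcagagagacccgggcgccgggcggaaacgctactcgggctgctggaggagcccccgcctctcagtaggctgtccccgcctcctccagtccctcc
Psmb5: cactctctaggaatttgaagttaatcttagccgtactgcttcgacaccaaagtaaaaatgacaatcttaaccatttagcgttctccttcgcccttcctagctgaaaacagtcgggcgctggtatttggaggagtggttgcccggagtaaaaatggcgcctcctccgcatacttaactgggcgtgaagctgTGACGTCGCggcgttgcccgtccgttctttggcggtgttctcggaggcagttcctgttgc
The interferon element started 73 and 17 bases before the start of Psmb10 and 53 bases before that of Psme2, and the antioxidant element 60 bases before that of Psmb5. The Psme1 window held no match to any of the 4 motifs searched.

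Both strands were searched in the 36 of 40 members with an entry in the RefSeq promoter table and in all 33469 promoters of that table. The interferon-stimulated element was in 5 of 36 members (Psma4, Psmb3, Psmb10, Psmd7 and Psme2), or 13.9%, and in 3.41% of all promoters. TGANNNNGC was in 15 members, or 41.7%, against 34.7% of all. CCAAT, the box bound by NF-Y, was in 18 of the 36 members, against 34.0% of all, and the gamma-activated sequence TTCNNNGAA was in 3 members, or 8.33%, against 7.67%. Matches of different motifs overlapped in 2 member promoters. A match is a description of letters, and of the 5 genes with the interferon-stimulated element only Psmb10 and Psme2 were lower in oligodendrocytes than in endothelial cells.

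Expressed as shares, the catalytic make-up differed between the types in the same way. Psmb10 supplied 65.0%, 64.1%, 62.4% and 65.0% of the UMIs of Psmb10 and Psmb7 together in microglia of sets 1 to 4. The share was 68.9%, 69.2%, 65.8% and 66.5% in endothelial cells and 37.8%, 37.8%, 24.9% and 22.6% in oligodendrocytes. A share of transcripts is not a ratio of assembled particles, and it is used only to compare the same 2 genes between cells. Over all sets it was 85.5% (exact binomial 83.4% to 87.4%) in ependymal cells, 78.7% in border macrophages, 76.9% in monocytes, 44.3% in pericytes and 34.2% in smooth muscle cells. T cells were at 65.5% over all sets, a value that no single set had, with 47.9%, 50.8%, 82.7% and 78.0% in sets 1 to 4. Ependymal cells, which line the ventricles, were at 83.7%, 86.3% and 88.8% in sets 1 to 3; set 4 had 10 of these cells and 11 UMIs of the 2 genes. Their Psmb10 level was 451, 500 and 866 CPM in sets 1 to 3, from 56, 55 and 18 cells.

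The PA28 genes Psme1 and Psme2 made up 88.7% to 90.9% of all activator UMIs in microglia, 90.2% to 91.0% in endothelial cells and 61.9% to 73.0% in oligodendrocytes. The 19S genes made up 33.9%, 33.8%, 38.5% and 38.3% of 19S and 20S UMIs in microglia and 40.9% to 42.6% in oligodendrocytes. Endothelial cells had 37.2% to 38.3%, and over all sets T cells had 29.0% and smooth muscle cells 44.6%. The microglial share was the only 1 of these 3 that split the sets by several points, with sets 3 and 4 above sets 1 and 2.

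**Figure D5:**
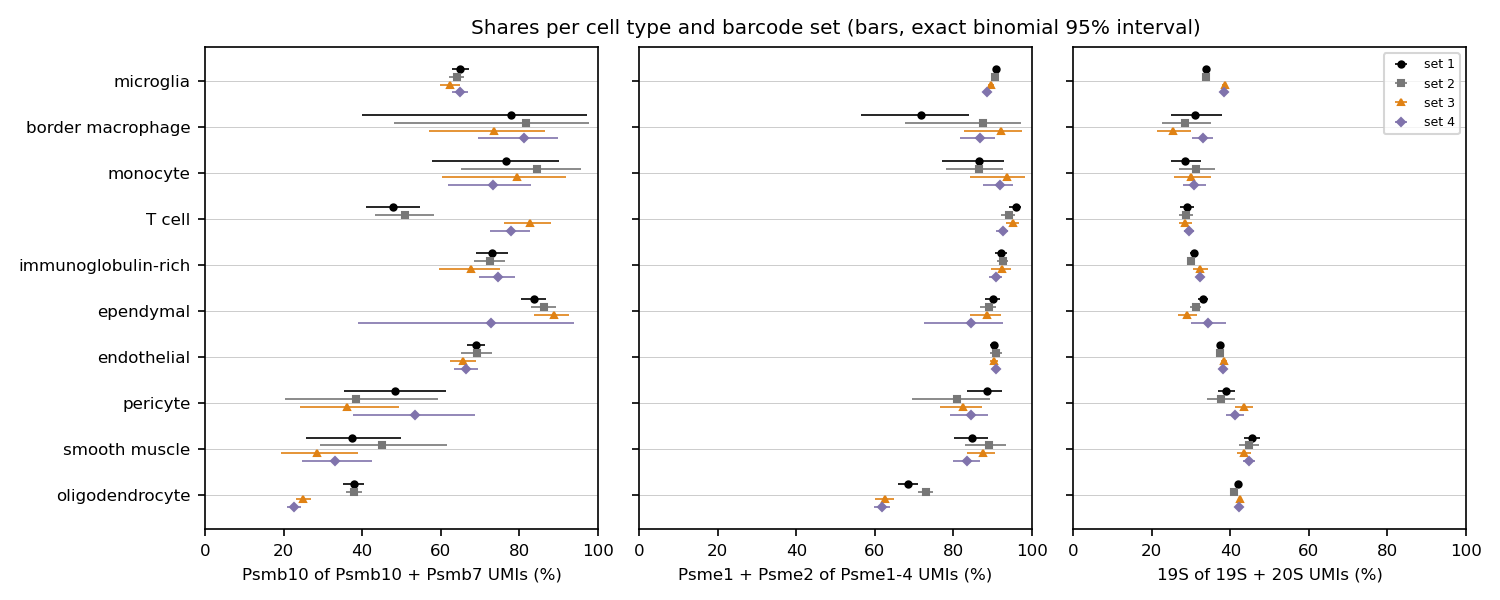
Shares in percent (x axes) of Psmb10 among Psmb10 and Psmb7 UMIs, of Psme1 and Psme2 among the 4 activators and of 19S among 19S and 20S UMIs in 10 cell types (y), by barcode set, with exact binomial 95% intervals. Oligodendrocytes lie at 22.6% to 37.8% in the left panel and microglia at 62.4% to 65.0%.

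The contrast also appeared cell by cell. With every cell thinned to 1000 UMIs, which left out 218 microglia, 209 oligodendrocytes and 67 endothelial cells as too shallow, the median cell showed 3 of the 40 genes in microglia and 5 in oligodendrocytes. Psme1 was then seen in 34.0%, 33.1%, 36.0% and 33.1% of microglia and in 5.45%, 5.62%, 2.32% and 2.88% of oligodendrocytes. Without thinning the shares were 76.5% to 85.2% and 12.2% to 23.3%, at median depths of 4491 to 6655 and 4949 to 6240 UMIs. Psmb5 went the other way, in 8.11% to 9.92% of thinned microglia and 27.7% to 31.4% of thinned oligodendrocytes. The microglial gene Csf1r was seen in 1.18% to 1.73% of thinned oligodendrocytes and in 54.5% to 78.7% of thinned microglia. Csf1r is among the markers that assigned the cells. These shares therefore depend in part on that assignment and are no separate measure of free RNA.

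Endothelial cells were higher than microglia in part of the constitutive genes. Of the 40 members 16 were called higher, where 25.2% of 10191 measured genes were, and 0 were called lower, where 15.2% were. Within the members' range of UMI totals the shares were 27.9% and 15.3%. The blocked edgeR test passed 22 members as higher (36.6% of all genes) and 0 as lower (21.8%), adding Psmb4, Psmb6, Psmb10, Psmd6, Psmd10 and Psmf1 to the 16. The calls comprised 4 core genes and 12 genes of the 19S particle, and the median log2 ratios of the groups were 0.61 and 0.88 against 0.26 for all genes. Of the members called in every set Psma6, an alpha-ring gene, led with 148, 139, 134 and 126 CPM in microglia and 407, 396, 275 and 300 CPM in endothelial cells, a median log2 ratio of 1.36. Psmd1 followed with 34.7, 34.4, 53.0 and 51.5 CPM against 88.6, 78.6, 116 and 104 CPM, or 1.16, and Psma1, another alpha-ring gene, with 43.9, 41.9, 49.6 and 48.9 CPM against 93.2, 99.0, 106 and 111 CPM, or 1.14. Psmd7 and Psmc1 had median log2 ratios of 1.10 each and Psmd8 had 1.09. TMM scaling moved the median of all genes to −0.09 and left 3 members called, Psma1, Psma6 and Psmd7, where 18.3% of all genes were higher and 21.1% lower, and the share of higher calls among all calls went from 62.4% to 46.4%. The haemoglobin transcripts named above enter the endothelial totals, and with only cells at or below 1% of them (741, 273, 549 and 863 cells) the summed log2 ratio to microglia rose from 0.62 to 0.72.

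Oligodendrocytes and endothelial cells were closer to each other. Of the 40 members 6 were called higher in oligodendrocytes, where 23.9% of 10334 genes were, and 3 were called lower, where 19.6% were. Within the members' range of UMI totals the shares were 24.7% and 20.5%, and with TMM scaling they were 23.3% and 20.8% of all genes. The blocked edgeR test passed 10 members as higher (33.7% of all genes) and the same 3 as lower (26.2%). The higher genes were Psmd6 (1.28), Psmd10 (1.16), the deubiquitinase Psmd14 (0.86), Psmb5 (0.84), Psmd4 (0.79) and the ATPase Psmc6 (0.65), and the lower ones were Psme1, Psmb10 and Psme2. Psmd6 had 58.2, 54.0, 83.6 and 73.6 CPM in endothelial cells, below every oligodendrocyte value. The median log2 ratio was 0.28 for the core and 0.51 for the 19S genes, against 0.17 for all genes, and −0.71 for the activators.

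Within the 3 main types few of these genes differed between the barcode sets. Within a type a gene was called where its highest set was at least 1.5-fold over its lowest and the interval left out 1. In microglia 1 of 40 members passed, Psmd1, at 1.54-fold (1.37 to 1.74) for set 3 over set 2, where 35.8% of 9579 measured genes passed. It was under the minimum without set 3 (1.499-fold) and with TMM scaling (1.36-fold). In oligodendrocytes 2 of 40 passed, where 25.7% of 9546 genes did, and both were immune-type genes. Psme1 was 2.72-fold (2.39 to 3.10) higher in set 2 than in set 3, and Psmb10 was 2.07-fold (1.86 to 2.31) higher in set 2 than in set 4. For both, sets 1 and 2 lay above sets 3 and 4, whereas Psme2 did not differ by the rule (52.4 to 57.9 CPM). In endothelial cells 2 of 40 passed, where 48.5% of 8033 genes did: Psmd10, at 2.07-fold (1.16 to 3.93) for set 4 over set 2, and Psmd6, at 1.55-fold (1.26 to 1.91) for set 3 over set 2. Neither passed with TMM scaling (1.59-fold and 1.22-fold), and Psmd10 did not pass without set 4, nor Psmd6 without set 2 or set 3. With TMM scaling other members passed instead, more in number than on the plain CPM scale, in both microglia and endothelial cells. The endothelial cells of the sets lay in different clusters. Clusters named endothelial held 77, 73, 630 and 1002 cells where the marker rule took 863, 333, 561 and 897. Between sets of those clusters 12 of 40 members passed. The share of all genes that passed there, or with TMM scaling, is not reported here, so these counts have no background beside them.

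Some markers of other cells were higher in the oligodendrocytes of sets 1 and 2 as well. The summed level of the 12 microglial markers in oligodendrocytes was 421, 561, 185 and 205 CPM, or 1.87%, 2.33%, 1.17% and 1.37% of the level in microglia of the same set, and all 12 were detected. The 10 astrocyte markers summed to 331, 375, 184 and 194 CPM and the 9 B cell markers to 419, 179, 7.06 and 92.7 CPM. Endothelial markers (68.7, 36.9, 49.6 and 61.3 CPM), monocyte markers (94.3, 110, 96.3 and 113 CPM) and T cell markers (2.60, 2.48, 2.78 and 3.17 CPM) did not follow the sets that way, and the cells' own markers were lower in sets 1 and 2 (39553, 39247, 51231 and 50309 CPM). Psme1 in oligodendrocytes stood at 14.0%, 15.9%, 5.37% and 6.61% of its microglial level, and Psmb10 at 63.3%, 72.1%, 46.0% and 43.1%. In the 262, 351, 557 and 671 oligodendrocytes with no UMI of any microglial, endothelial or T cell marker, Psme1 had 50.4, 51.3, 21.3 and 26.1 CPM and Psmb10 had 70.4, 76.0, 36.5 and 29.96 CPM. Sets 1 and 2 were above sets 3 and 4 in these cells too, a choice made after seeing the data. The choice did not use the astrocyte and B cell markers, and the part of free RNA from such cells was not tested. Psmb9, a further immunoproteasome subunit outside the 40 genes, had 27.3, 31.7, 4.12 and 5.50 CPM in all oligodendrocytes.

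T cells differed between sets in catalytic subunit genes, most in Psmb7. The T cells numbered 643 and were added as a type for this comparison after values were seen. Psmb7 had 203, 176, 43.1 and 51.6 CPM in T cells of sets 1 to 4, a 4.71-fold difference (3.12 to 7.30) between sets 1 and 3. It was seen in 36.4%, 28.3%, 18.8% and 19.6% of T cells, and the single richest cell held 18.0%, 8.89%, 10.0% and 4.92% of its UMIs. Psmb10 was not called, at 186, 181, 205 and 183 CPM, so that its share of Psmb10 and Psmb7 UMIs was 47.9%, 50.8%, 82.7% and 78.0%. Psmb5 was called, at 1.55-fold (1.21 to 1.98) for set 1 over set 4, and Psmb6 was not, at 1.40-fold (0.99 to 1.98). Psme2 had 329, 343, 187 and 216 CPM, 1.84-fold (1.46 to 2.33) between sets 2 and 3, while Psme1 was not called, at 867, 884, 864 and 771 CPM. Of 35 measured members 12 passed (34.3%), where 38.1% of 3001 genes did. All 12 had their highest value in set 1 or set 2, as had 51.0% of the 1144 genes that passed. The proliferation marker Mki67 had 91.3, 58.5, 18.7 and 34.7 CPM and the cytotoxic T cell marker Cd8a had 294, 414, 643 and 680 CPM in the same cells. The part of these markers in the set differences was not tested.

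In microglia the 19S genes and the genes at large lay on the same side in each set. Against the other 3 sets summed, 4 of 20 were higher in set 1, 1 in set 2, 18 in set 3 and 17 in set 4, where 33.9%, 34.1%, 59.5% and 66.9% of all measured genes were higher. The 19S genes had median log2 ratios of −0.21, −0.11, 0.14 and 0.15. Over all genes the medians were −0.12, −0.13, 0.07 and 0.14. The 14 core genes other than Psmb10 had medians of −0.02, 0.05, −0.01 and −0.04. Ribosomal protein genes took 10.7%, 9.52%, 8.29% and 8.09% of microglial UMIs in the same order, and their part in these differences was not tested.

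The genes that serve the proteasome were examined from lists of partner proteins, on the plain CPM scale, and are to be read against the 37.6% of all genes that were higher and 22.1% that were lower in oligodendrocytes than in microglia. All 4 measured assembly chaperone genes were higher in oligodendrocytes than in microglia, led by Psmg3 (log2 2.13) and Psmg1 (1.56), which help to build the alpha ring. Psmg3 had 11.6, 15.1, 15.4 and 15.9 CPM in microglia and 54.6, 55.6, 64.5 and 73.1 CPM in oligodendrocytes. Of 11 proteasome-bound proteins 6 were higher and 1 lower: the small 19S subunit gene Sem1 (1.01) and the ubiquitin ligase Ube3a (1.13) were higher, and Zfand2a, a stress-induced proteasome binder, was lower (−4.69). Zfand2a had 360, 323, 539 and 597 CPM in microglia and 17.4, 20.5, 15.3 and 18.6 CPM in oligodendrocytes. Of 7 genes for ubiquitin activation and extraction 4 were higher, among them the activating enzyme Uba6 (1.49), Ufd1 (1.21) and the ligase Stub1 (0.86), and of 8 shuttle and autophagy receptors 3 were higher, among them Ubqln2 (1.65), a share near that of all genes.

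Ubiquitin genes and class I partners were mostly lower in oligodendrocytes than in microglia. Of 4 ubiquitin genes 3 were lower, including the polyubiquitin gene Ubb (−1.09). Of 9 measured class I and immunoproteasome partners 8 were lower, with Psmb9 at −3.15 and the peptide transporter gene Tap2 at −3.16. The 8 genes known to control proteasome transcription were split, with 2 higher, Foxo4 (1.91) and the NF-Y subunit gene Nfyb (1.34), and 3 lower, namely Nfe2l2 (−3.26), which encodes the factor NRF2, the NF-Y subunit gene Nfya (−2.57) and Stat3 (−1.32). Their median log2 ratio was 0.16, against 0.42 for all genes. Nfe2l2 had 511, 507, 235 and 214 CPM in microglia and 39.4, 46.5, 27.8 and 33.1 CPM in oligodendrocytes, so that within microglia it was higher in sets 1 and 2.

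In endothelial cells against microglia 25.2% of all genes were higher and 15.2% lower. Of the lists, 0 of 4 assembly chaperones passed, 3 of 11 bound proteins were higher and 1 lower, 3 of 9 class I partners were higher, and 4 of 8 transcription genes were higher and 2 lower. Against endothelial cells, oligodendrocytes were lower in 7 of 8 measured class I partners and in 4 of 8 transcription genes and higher in Psmg3 (1.49). In that pair 19.6% of 10334 measured genes were lower and 23.9% higher. In oligodendrocytes the list genes with large set differences included Psmb9 (7.69-fold, set 2 over set 3), Tap1 (5.63-fold), Irf1 (3.41-fold) and B2m (2.94-fold), each with its highest value in set 1 or 2. Between sets of oligodendrocytes 25.7% of 9546 measured genes passed. The other list genes are not counted here, so the sets in which these were highest are no trait of the lists. The named partners of each list were the up to 2 called in most pairs of cell types, with ties. Psmb9, Tap1, Irf1 and B2m were chosen for the set differences after their values were seen.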

How the data were processed

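The authors deposited 1 matrix of UMI counts per gene and barcode, written by Cell Ranger 5.0.0 per the file headers; Cell Ranger, STAR and the build Rnor 6.0 are named in the submitters' processing notes, and no annotation or cell calling setting is stated there. The minimum for a cell was 500 UMIs over 300 detected genes, and the mitochondrial share could reach 20%. A cell was gated to a type where at least 50% and at least 4 of that type's markers were detected and no unrelated list reached 0.5 times that share, which left out 2086 mixed cells as likely doublets; these thresholds were set after seeing the data, and 1009 microglia, 41 oligodendrocytes and 125 endothelial cells lay at the minimum. Scrublet, which marked 3.26% of cells, served as an added alternative. Types under 50 cells are not described, nor are 61 NK cells.

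Counts were summed per type and barcode set (Python 3.11.15, numpy 2.4.6, scipy 1.17.1), and CPM ratios carry exact conditional binomial 95% intervals, which cover counting error only. A gene was measured between types with at least 20 UMIs in both together in every set, and between sets with at least 50 UMIs. TMM factors came from edgeR 4.0.16, whose quasi-likelihood test with the set as a block served as an added test between cell types (Benjamini-Hochberg adjusted p under 0.05 and at least 1.5-fold). Clusters for comparison came from a Leiden partition (igraph 0.11.9) of 2000 variable genes, 30 components, 15 neighbours and resolution 1. The members and lists were chosen with earlier results of these data known, and T cells, immunoglobulin-rich cells (at least 10 UMIs of Mzb1) and the alternatives named as added were chosen after seeing the data. Named with values were every catalytic and activator member, the 6 called members with the largest ratios per pair, up to 4 called members between sets and up to 2 genes per list, of which some are not reported here. The scripts were tested on simulated data. Each set is 1 library of unknown condition, so conditions have no test, and p-values between cell types measure the spread over 4 libraries.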

Additional observations from a re-analysis of the deposited data

How the results depend on the processing

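Conditions could not be paired, since each title has 1 library and no set is tied to a title. Cell types were paired by set in edgeR with the set as a replicate block, added after seeing the data. Under it members higher in oligodendrocytes than in microglia numbered 32 (20 with TMM scaling), members lower there 3 (4), members higher in endothelial cells than in microglia 22 (11) and members higher in oligodendrocytes than in endothelial cells 10 (10). With TMM scaling 33.0% of all genes were higher and 34.6% lower in oligodendrocytes than in microglia. The shares of higher genes were 25.1% for endothelial cells over microglia and 33.3% for oligodendrocytes over endothelial cells. The 18 summary results were recomputed under 22 alternatives where each applied. Most of them are counts or shares, which have no direction to change, and 10 of the 18 moved under at least 1 alternative. Members higher in oligodendrocytes than in microglia went from 29 to 16 with TMM scaling, 16 with 2-fold calls and 15 with ratios centred on the median of all genes (29 to 30 leaving out each set). Members lower there went from 1 to 4 with TMM scaling, 4 centred and 1 to 2 leaving out each set. Members higher in endothelial cells than in microglia went from 16 to 3 with TMM scaling, 4 at 2-fold and 6 centred. Members higher in oligodendrocytes than in endothelial cells went from 6 to 1 at 2-fold, 3 with Leiden clusters and 3 centred.

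Members apart between sets in microglia went from 1 to 2 with TMM scaling, 3 with totals without mitochondrial and ribosomal protein genes, 0 at 2-fold, 2 with thinned cells and 0 to 1 leaving out each set (0 without set 3). In oligodendrocytes they went from 2 to 4 in cells without markers of other types. In endothelial cells they went from 2 to 5 with TMM scaling, 4 without mitochondrial and ribosomal protein genes, 1 at 2-fold, 12 with Leiden clusters, 1 with doublets kept, 8 with thinned cells and 1 to 2 leaving out each set (1 without set 2, 3 or 4). The Leiden clusters named endothelial held 77, 73, 630 and 1002 cells in sets 1 to 4. Shares of all genes passing between sets under these alternatives are not reported here, so the counts are no result about the members. On the plain CPM scale those shares were 35.8% in microglia, 25.7% in oligodendrocytes and 48.5% in endothelial cells.

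The summed log2 ratio to microglia went from 0.80 to 0.43 with TMM scaling for oligodendrocytes, and for endothelial cells from 0.62 to 0.27 with TMM scaling, 0.76 with Leiden clusters and 0.72 in cells low in globin. The share of Psme1 and Psme2 in endothelial activators went from 90.7% to 89.3% with thinned cells. Beyond what each setting does by construction, the cause was not tested. For single members, 59 values came to pass a call, 137 no longer passed and 2395 kept their side. Endothelial Psmd10 had no UMI in 1 thinned set and gave no value there.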

Other observations

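Immunoglobulin-rich cells, 683 cells with a median of 19969 UMIs, had 2135, 2059, 2104 and 2434 CPM of the 40 genes, and 72.7% Psmb10 of Psmb10 and Psmb7 UMIs over all sets. Erythroid cells, 109 cells, had 710 CPM (657 to 767) of the 40 genes over all sets, where sets 3 and 4 added 26 and 6 UMIs of these genes. In these cells 6 erythroid markers alone took 437172 CPM, which lowers the CPM of every other gene. The share of immunoglobulin transcripts in the totals of immunoglobulin-rich cells is not given here, so neither low sum is read as low proteasome expression.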
